A study of Rattus norvegicus with 6 samples.

Results

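The transcripts of 10 antioxidant defence enzymes (Sod1, Sod2, Cat, Gpx1, Prdx1, Prdx4, Txn1, Hmox1, Nqo1 and Gclc) were followed in pancreatic islets of young and middle-aged rats. The members were fixed by name, and a probe was assigned to a gene when its RefSeq mRNA accession carried that gene's symbol. All 10 genes, of 13903 genes named on the array, had a probe, with 1 probe each. All of them passed the filter on dim probes, which kept probes with signal clearly over background on 3 or more of the 6 arrays, and all 10 met that mark on every array. The islets came from male Wistar rats aged 12 months (3 arrays) or 3 months (3 arrays), were freed from the pancreas with collagenase, and had received no other treatment that the labels mention. The study's text gives 3 rats for each age. The labels do not say whether each array held the RNA of 1 rat, so the p-values measure the spread between these arrays.

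Oxygen metabolism releases superoxide, which superoxide dismutases turn into hydrogen peroxide. Catalase, glutathione peroxidases and peroxiredoxins then reduce the peroxide, drawing on glutathione, thioredoxin and ultimately NADPH. Many of these genes are induced through the antioxidant response element, the DNA motif that NRF2 (encoded by Nfe2l2) binds once its inhibitor KEAP1 releases it. Beta cells are known for low catalase and glutathione peroxidase activity compared with liver, which is why this set is of interest in islets.

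Promoter sequences are shown for the 3 members whose mean signal at 12 months lay furthest above that at 3 months, because the motif of NRF2 and the GC boxes of SP1-type factors can be read in them. Each run holds the 250 bases before the gene's start in RefSeq (assembly GRCr8), written 5′ to 3′ along the gene. Capitals mark the core of the antioxidant response element in Sod2 and Prdx1, both read on the opposite strand, and the GC boxes in Txn1.
Sod2, chr1:50050169-50050418, minus strand: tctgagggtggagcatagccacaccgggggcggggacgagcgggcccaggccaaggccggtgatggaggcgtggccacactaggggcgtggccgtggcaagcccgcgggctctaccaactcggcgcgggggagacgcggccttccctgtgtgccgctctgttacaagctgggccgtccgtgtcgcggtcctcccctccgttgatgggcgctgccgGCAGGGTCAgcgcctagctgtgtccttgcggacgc
Prdx1, chr5:135383656-135383905, plus strand: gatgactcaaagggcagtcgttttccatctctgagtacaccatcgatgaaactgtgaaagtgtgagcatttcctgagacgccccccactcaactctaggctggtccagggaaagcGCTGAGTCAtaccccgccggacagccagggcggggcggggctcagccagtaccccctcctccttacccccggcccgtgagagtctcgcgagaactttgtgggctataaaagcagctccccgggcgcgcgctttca
Txn1, chr5:77519686-77519935, minus strand: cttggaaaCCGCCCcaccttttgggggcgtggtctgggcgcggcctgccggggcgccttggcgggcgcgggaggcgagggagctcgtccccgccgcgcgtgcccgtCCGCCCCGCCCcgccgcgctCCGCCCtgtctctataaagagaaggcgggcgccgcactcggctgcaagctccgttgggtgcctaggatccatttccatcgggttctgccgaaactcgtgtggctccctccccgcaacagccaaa

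The element was searched as TGACNNNGC and the GC box as GGGCGG, on both strands and with overlaps allowed. RefSeq promoters were found for 9 of the 10 members (Hmox1 had none). The element core was present in 2 of these 9, at bases -35 to -27 from the start of Sod2 and at -135 to -127 from that of Prdx1, against 10.1% of 33469 promoters of the same length. A GC box was present in 8 of the 9, against 30.5% of promoters. The letters of the TATA box, TATAAA, were present somewhere in the window in 5 of the 9, against 12.9% of promoters. They began at -28 in Sod1, -32 in Prdx1, -59 in Nqo1, -112 in Txn1 and -244 in Gclc. The promoters compared were all those of RefSeq, not matched to the members in GC content or expression. Such matches describe the letters of the window and are not measurements of binding.

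Signal is given as quantile-normalised log2 intensity, in which a difference of 1 is a doubling of signal, and differences are 12 months minus 3 months. The level of a probe cannot be set against that of another, since probes differ in brightness. Sod2 had higher signal at 12 months at an adjusted p under 0.05 over all tested probes, and Sod2 and Txn1 passed the fold and p of the study's threshold (fold over 2, p under 0.05 without adjustment), with p from limma in place of the paired test per probe that the study used. No member passed either threshold in the lower direction. The mean was higher at 12 months for 7 members and lower for 3, with a median difference of 0.28. Over all 17941 tested probes the median difference was -0.17, and 5.32% of probes were called higher and 3.05% lower at the adjusted threshold, while the study's threshold called 10.1% higher and 11.9% lower. The members called therefore numbered 1 of 10 against a background of 5.32%, and 2 of 10 against 10.1%. The values of the ages did not overlap, with 12 months higher, for Sod2, Prdx1, Txn1 and Gclc (4 of 10, against 16.5% of all tested probes). None of the 10 was without overlap in the lower direction, where 22.8% of all tested probes were.

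**Figure D1:**
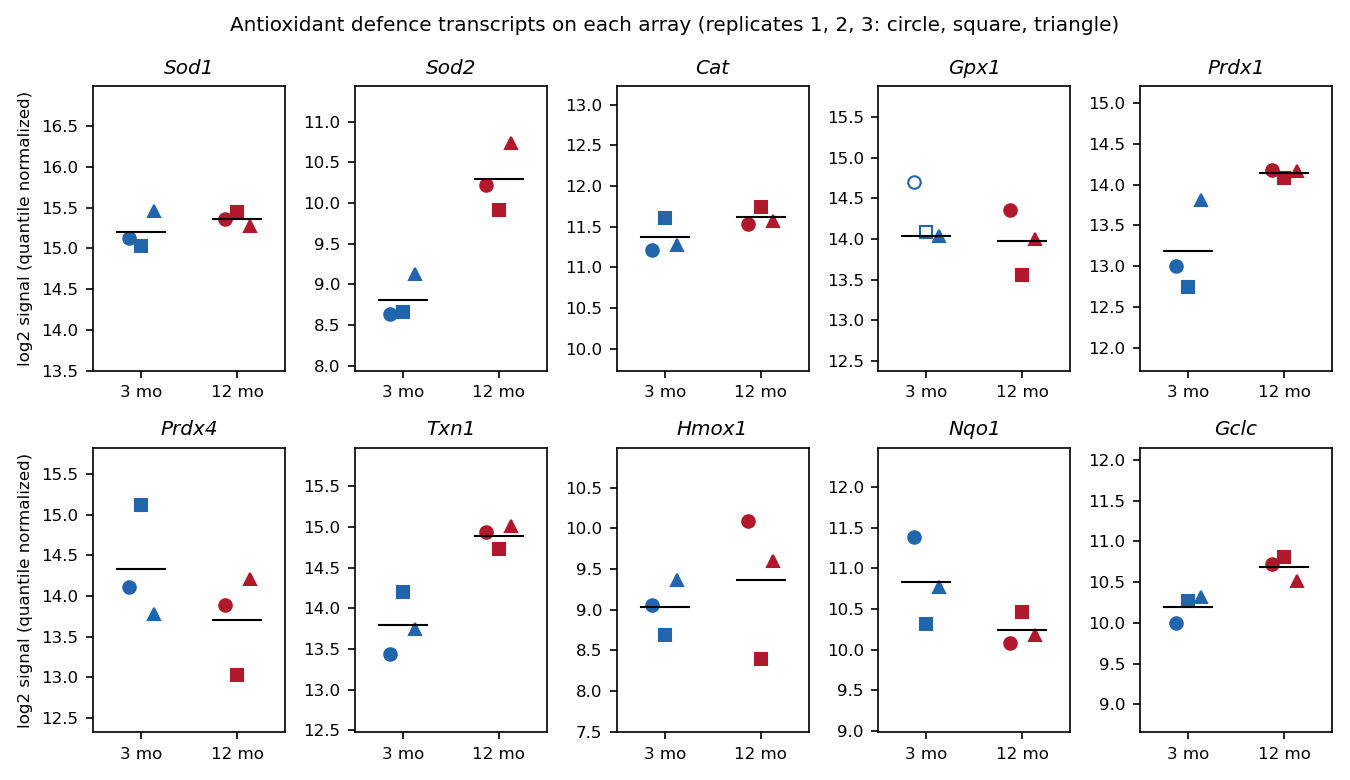
Quantile-normalised log2 signal of each member on each array, with 3 arrays at 3 months (blue) and 3 at 12 months (red); horizontal bars are means, and every panel spans the same number of log2 units. The open Gpx1 symbols are the 2 spots that the scanner software marked as outliers, which are left out of the mean. Sod2, Prdx1, Txn1 and Gclc show no overlap between the ages.

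The arrays of each age differed in more than age. The 12-month arrays were read in 1 scan and the 3-month arrays in another, and the effects of scan and age on a value cannot be told apart. The median signal of the negative-control spots was 89.5 to 91 at 12 months and 29.5 to 31 at 3 months, and 59.5% to 64.2% of probes were well above background at 12 months against 73.0% to 77.4% at 3 months. Hormone transcripts were read as a check of the tissue. They do not measure its purity, since the acinar transcript Pnlip was as bright (mean 18.46 at 12 months and 18.40 at 3 months). Insulin (Ins1, 18.43 to 18.86 over the 6 arrays), glucagon (Gcg, 18.01 to 18.29) and somatostatin (Sst, 17.68 to 18.27) were bright on every array, with adjusted p of 0.786, 0.559 and 0.372 between the ages. Ins2 had an adjusted p of 0.737, and Iapp was higher at 12 months by 0.95 without overlap (adjusted p = 0.0532). Quantile normalisation gives the brightest probes nearly the same values on every array, so these p-values cannot show that the ages agree. With each array shifted to a common 75th percentile, Ins1 differed by -0.67, Gcg by -0.22 and Sst by -0.076.

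Among the superoxide dismutases, the mitochondrial manganese enzyme encoded by Sod2 (NM_017051.2) stood apart from the cytosolic copper-zinc enzyme encoded by Sod1 (NM_017050.1). Sod2 signal was 10.22, 9.91 and 10.74 on the 12-month arrays and 8.63, 8.66 and 9.13 on the 3-month arrays. The lowest 12-month value lay above the highest 3-month value. The means were 10.29 ± 0.42 (SD, n = 3) and 8.81 ± 0.28 (SD, n = 3), a difference of 1.48 ± 0.30 (SE) and a fold of 2.79 (95% limma interval 1.69 to 4.61), with an adjusted p of 0.0355 by limma. The exact permutation test gave p = 0.1 for Sod2, which is the smallest two-sided p that 3 arrays against 3 allow. The adjusted call was lost when any array other than the second 12-month array was left out, with the difference then between 1.26 and 1.64. It was also lost with the replicate block of 3 pairs (adjusted p = 0.0962), the numbered pairs (0.268), the 4 arrays whose names share an ending (0.225), an unpaired test per probe without moderation (0.0854) and the paired test per probe (0.249).

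Sod1 signal was 15.36, 15.44 and 15.27 at 12 months and 15.13, 15.03 and 15.46 at 3 months. The ages overlapped, since the highest value of all was on the third 3-month array. The Sod1 difference was 0.15 ± 0.23 (SE), with a 95% limma interval of -0.40 to 0.70 and an adjusted p of 0.671, and it turned to -0.24 when each array was shifted to a common 75th percentile. The log2 ratio of Sod2 to Sod1 within an array, a comparison chosen after the values were seen, was -5.14, -5.53 and -4.53 at 12 months and -6.50, -6.37 and -6.33 at 3 months. The ratio was higher on every 12-month array than on any 3-month array, by 1.33 between the means (exact permutation p = 0.1).

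Hydrogen peroxide is removed by catalase (Cat, NM_012520.1, peroxisomal), the selenoenzyme glutathione peroxidase 1 (Gpx1, NM_030826.3), and the peroxiredoxins 1 (Prdx1, NM_057114.1, mostly cytosolic) and 4 (Prdx4, NM_053512.1, of the endoplasmic reticulum, where it takes part in oxidative protein folding). Prdx1 signal was 14.18, 14.09 and 14.17 on the 12-month arrays and 13.00, 12.75 and 13.81 on the 3-month arrays. The 12-month values lay within 0.09 of each other, above all 3-month values, which spanned 1.07. The mean difference for Prdx1 was 0.96 ± 0.32 (SE), a fold of 1.94 (95% limma interval 1.14 to 3.30), with an unadjusted p of 0.0212 and an adjusted p of 0.0998, so that it passed neither threshold.

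Prdx4 signal was 13.88, 13.03 and 14.21 at 12 months and 14.11, 15.12 and 13.78 at 3 months. The ages overlapped for Prdx4, and the spread within each age was wide. Its difference was -0.63 ± 0.46 (SE), with a 95% limma interval of -1.72 to 0.46 and an adjusted p of 0.366. Within an array the log2 ratio of Prdx1 to Prdx4 was 0.29, 1.06 and -0.04 at 12 months and -1.11, -2.37 and 0.03 at 3 months, also compared after the values were seen. The ratio overlapped between the ages through the third array of each, and the difference of 1.59 had an exact permutation p of 0.2.

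Cat signal was 11.54, 11.74 and 11.57 at 12 months and 11.22, 11.61 and 11.28 at 3 months. The second 3-month array lay above 2 of the 12-month values. The Cat difference was 0.25 ± 0.23 (SE), with a 95% limma interval of -0.31 to 0.80 and an adjusted p of 0.481, which leaves a rise of the size seen in Sod2 outside the interval. Gpx1 signal was 14.36, 13.56 and 14.00 at 12 months, and 14.03 on the third 3-month array, the other 3-month spots having been marked as outliers by the scanner software. On the single 3-month array that entered the fit, Gpx1 lay within the 12-month range, with a difference of -0.06 ± 0.46 (SE) and an adjusted p of 0.941. With the marked spots kept, Gpx1 was 14.70, 14.09 and 14.03 at 3 months and the difference was -0.29 ± 0.32 (SE), with an adjusted p of 0.538.

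Thioredoxin 1 (Txn1, NM_053800.3) is the cytosolic disulphide reductant that feeds the peroxiredoxins. Its signal was 14.93, 14.73 and 15.01 on the 12-month arrays and 13.44, 14.20 and 13.75 on the 3-month arrays. Every 12-month value of Txn1 was above every 3-month value. The means were 14.89 ± 0.15 (SD, n = 3) and 13.80 ± 0.38 (SD, n = 3), a difference of 1.09 ± 0.28 (SE) and a fold of 2.13 (95% limma interval 1.36 to 3.36), with an unadjusted p of 0.00565 and an adjusted p of 0.0561. Txn1 passed the study's threshold with the limma p and missed it with the paired test per probe. It missed the adjusted threshold, which it passed under 4 of 20 alternative settings. Under the 75th percentile shift the Txn1 difference was 0.76, below a doubling.

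The mitochondrial thioredoxin Txn2, which is not a member, was compared with Txn1 within each array, again after the values were seen. The log2 ratio of Txn1 to Txn2 was 2.87, 2.63 and 3.13 at 12 months and 0.61, 1.63 and 1.20 at 3 months. All 12-month ratios were higher, by 1.73 between the means (exact permutation p = 0.1). Txn2 itself was 12.06, 12.09 and 11.89 at 12 months and 12.82, 12.57 and 12.55 at 3 months, a difference of -0.63 with an adjusted p of 0.110.

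The inducible enzymes are textbook targets of NRF2. Heme oxygenase 1 (Hmox1, NM_012580.2) breaks down heme, NAD(P)H quinone dehydrogenase 1 (Nqo1, NM_017000.3) reduces quinones, and Gclc (NM_012815.2) is the catalytic subunit of the rate-limiting enzyme of glutathione synthesis. None of the 3 passed either threshold. Gclc signal was 10.72, 10.81 and 10.51 at 12 months and 9.99, 10.27 and 10.32 at 3 months. The ages did not overlap for Gclc, but the gap between them was small, and the difference of 0.49 ± 0.23 (SE), a fold of 1.40, had an unadjusted p of 0.075 and an adjusted p of 0.193.

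Nqo1 signal was 10.08, 10.46 and 10.19 at 12 months and 11.39, 10.32 and 10.78 at 3 months. The second 12-month array lay above the second 3-month array, so the ages overlapped. The Nqo1 difference was -0.58 ± 0.33 (SE), with a 95% limma interval of -1.36 to 0.19 and an adjusted p of 0.251. Hmox1 signal was 10.09, 8.40 and 9.60 at 12 months and 9.06, 8.69 and 9.36 at 3 months. The 12-month Hmox1 values spanned 1.69, enclosing all 3-month values. Hmox1 differed by 0.32 ± 0.46 (SE) with an adjusted p of 0.644, and the sign of this difference rested on the first 12-month array, without which it was -0.04.

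**Figure D2:**
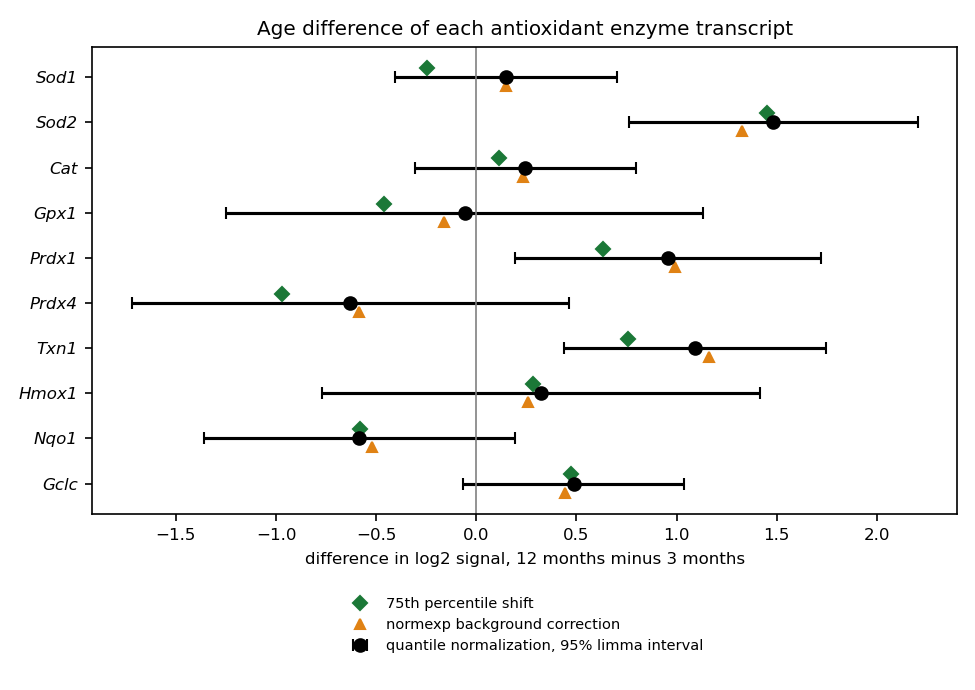
Difference in log2 signal, 12 months minus 3 months, for each member (3 arrays for each age, 1 at 3 months for Gpx1). Black points are quantile-normalised differences with 95% limma intervals, green diamonds the 75th percentile shift, and orange triangles normexp background correction. The intervals of Sod2, Prdx1 and Txn1 lie above 0, and those of the other 7 members cross it.

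The choice of scale moved the whole array. The median of all probes was -0.17 under quantile normalisation and -0.40 under the 75th percentile shift. Relative to that median, 8 of the 10 members lay above it under quantile normalisation and 7 under the shift, and Sod2, Txn1 and Prdx1 lay 1.65, 1.27 and 1.13 above it under the former and 1.85, 1.16 and 1.03 under the latter. Prdx4 and Nqo1 lay below the median on both scales, and Gpx1 moved from 0.11 above it to 0.06 below it.

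Beyond the members, 57 other antioxidant genes were listed, of which 52 had a probe and 50 were tested. Of these 50, 1 rose and 2 fell at the adjusted threshold, and 2 rose and 3 fell at the study's threshold. The 12-month mean was higher for 28 and lower for 22, with a median difference of 0.10, and 9 were higher and 11 lower without overlap between the ages. These counts stand beside the same background shares as those of the members. Glrx2, Pgd, Sesn1, Gsto1 and Mgst3 had no probe matched here, and Gsr and Maff were not above background on enough arrays.

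The gene that rose at the adjusted threshold was Idh1, the cytosolic isocitrate dehydrogenase that makes NADPH. Its signal was 10.57, 10.23 and 10.86 at 12 months and 8.36, 8.59 and 8.68 at 3 months. Every 12-month Idh1 value was well above the 3-month values, by 2.01 ± 0.26 (SE) on average, a fold of 4.03 (95% limma interval 2.63 to 6.19), with an adjusted p of 0.0108. Idh1 had an adjusted p under 0.05 in 5 of the 6 fits that left out an array, but not with the replicate block of 3 pairs (adjusted p = 0.0743), the numbered pairs (0.245), the paired test per probe (0.252) or the 4 arrays whose names share an ending (0.135). The other genes of NADPH supply that were tested did not pass a threshold, among them malic enzyme (Me1), named after its values were seen, at 12.07, 11.95 and 12.25 against 11.09, 11.17 and 11.38 (difference 0.87 ± 0.23, adjusted p = 0.0606).

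The genes that fell at the adjusted threshold were Gpx7 and Msra. Gpx7, a glutathione peroxidase of the endoplasmic reticulum, was 9.55, 9.67 and 9.38 at 12 months and 10.48, 10.65 and 10.79 at 3 months. Its 3-month values were all higher, and the difference was -1.10 ± 0.23 (SE), with an adjusted p of 0.0361. Msra, which reduces oxidised methionine in proteins, was 10.53, 10.33 and 10.56 at 12 months and 11.46, 11.68 and 11.38 at 3 months, again without overlap (difference -1.03 ± 0.23, adjusted p = 0.0413). When 1 array was left out, the call was lost for Gpx7 in 5 of the 6 fits and for Msra in all 6. Both calls were also lost with the replicate block of 3 pairs (adjusted p = 0.137 for Gpx7 and 0.150 for Msra) and the numbered pairs (0.328 and 0.303). The same held for the paired test per probe (0.265 and 0.267) and the 4 arrays whose names share an ending (0.206 and 0.220). The unpaired test per probe kept both (0.0443 for each).

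Blvra, the biliverdin reductase that acts after heme oxygenase, was 10.99, 10.77 and 10.96 at 12 months and 11.74, 11.81 and 12.24 at 3 months. It passed the study's threshold only, with a difference of -1.02 ± 0.24 (SE) and an adjusted p of 0.0515. Gpx2, whose ages overlapped, was the other gene that passed that threshold only (difference 2.09, adjusted p = 0.0893, named after its values were seen). The glutathione synthesis enzymes other than Gclc, also named after their values were seen, lay on opposite sides. The regulatory subunit Gclm was 11.05, 11.95 and 11.40 at 12 months and 10.61, 10.52 and 10.52 at 3 months, a difference of 0.92 ± 0.29 (SE) with an adjusted p of 0.0889. Glutathione synthetase (Gss) was 10.57, 10.37 and 10.82 against 11.80, 11.44 and 11.49, a difference of -0.99 ± 0.25 (SE) with an adjusted p of 0.0548. Neither Gclm nor Gss passed a threshold, although the ages did not overlap for either.

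Nfe2l2, which encodes NRF2, was 12.56, 12.31 and 12.30 at 12 months and 11.45, 11.86 and 11.20 at 3 months. The ages did not overlap, and the difference of 0.89 ± 0.26 (SE), a fold of 1.85, had an unadjusted p of 0.0119 and an adjusted p of 0.0774. Keap1 was 7.31, 4.22 and 9.28 at 12 months and 6.48, 6.26 and 4.88 at 3 months, and was not well above background on the second 12-month array. With a range of 5.07 within an age, the Keap1 difference of 1.06 ± 1.21 (SE) had an adjusted p of 0.559 and no stable sign.

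Outside the members, the element core was searched in the promoters of Gpx7, Idh1, Blvra, Nfe2l2, Keap1, Gclm and Me1, the last pair added after their values were seen. Msra had no promoter entry. Gss, Gpx2 and Txn2, also named after their values were seen, were not searched. The core, found in 10.1% of all promoters, was present in those of Idh1, Blvra, Gclm and Me1. Of these, Idh1, Gclm and Me1 had the higher mean at 12 months and Blvra the lower. Of the searched genes outside the members without the core, Nfe2l2 and Keap1 had the higher mean and Gpx7 the lower. The list depends on the choice of genes, and a link between the core and the direction was not tested. The windows around these matches are shown beside those of Sod2 and Prdx1 so that the varying bases of the core can be compared, with the core in capitals (RefSeq, assembly GRCr8, written along the gene).
Sod2, chr1:50050185-50050213, minus strand: ggcgctgccgGCAGGGTCAgcgcctagct
Prdx1, chr5:135383761-135383789, plus strand: cagggaaagcGCTGAGTCAtaccccgccg
Idh1, chr9:74049539-74049567, minus strand: taaaaagcctTGACCCTGCccccgggcgt
Blvra, chr3:134802755-134802783, plus strand: ttaaatatttGCTGGGTCAccgaagtgga
Gclm, chr2:213031953-213031981, plus strand: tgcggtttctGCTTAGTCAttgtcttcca
Me1, chr8:96540393-96540421, minus strand: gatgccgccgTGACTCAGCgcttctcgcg
No element core was found in the windows of Sod1, Cat, Gpx1, Prdx4, Txn1, Nqo1, Gclc, Gpx7, Nfe2l2 or Keap1, which says only that these letters are not in the 250 bases before those starts.

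**Figure D3:**
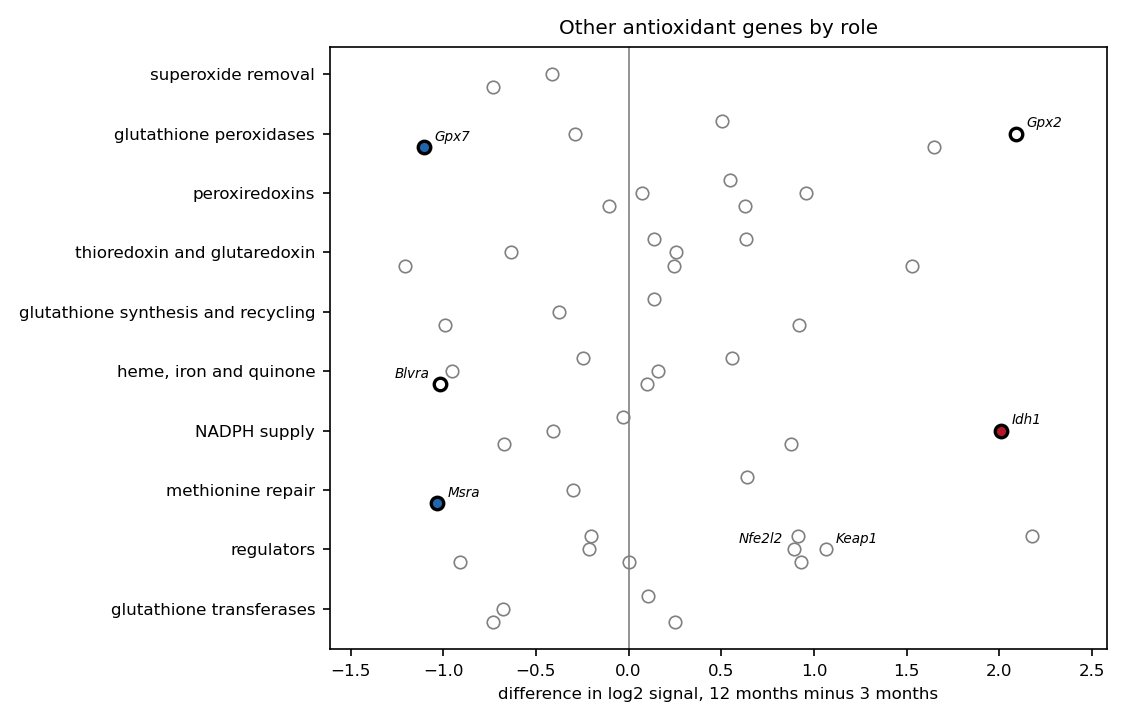
Difference in log2 signal, 12 months minus 3 months, for the 50 tested antioxidant genes outside the set, by role. Filled points have an adjusted p under 0.05 (red higher, blue lower), thick outlines mark the study's threshold, and vertical offsets within a role only separate the points. Idh1 is the filled point at 2.01, and Gpx7 and Msra are those at -1.10 and -1.03.

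Islet preparations hold several cell types, and in bulk RNA fewer cells of a type and less RNA per cell cannot be told apart. Transcripts of stellate and mesenchymal cells were higher at 12 months in 5 of the 5 markers tested, 1 of them (Pdgfrb) at the adjusted threshold. Col3a1, Pdgfrb, Dcn and Lum passed the study's threshold, which 10.1% of all tested probes passed in that direction. The summed signal of the stellate and mesenchymal markers was 14.63 to 15.99 (log2) at 12 months and 13.25 to 14.05 at 3 months. Endothelial markers were lower in 4 of 5, none at the adjusted threshold, with sums of 14.94 to 15.70 against 15.78 to 16.17, and Cdh5 was not well above background at 12 months. At the study's threshold Pecam1 was higher (difference 1.23, without overlap), and Cdh5 and Tek were lower (-2.11 and -1.14). The endothelial sum rests mostly on Plvap, the brightest of these markers (means of 15.14 at 12 months and 15.73 at 3 months). Schwann cell markers were lower in 4 of 4 tested (Sox10 at the adjusted threshold, S100b at the study's threshold only), with sums of 10.53 to 10.97 against 11.29 to 11.60.

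Summed beta cell signal was 19.93 to 20.14 at 12 months and 19.66 to 19.88 at 3 months, with 3 of 5 markers higher and Slc30a8 past the adjusted threshold. This sum rests mostly on Ins1, Ins2 and Iapp, of which only Iapp (0.95) did not overlap. Under the 75th percentile shift Ins1 and Ins2 each differed by -0.67. The other endocrine markers were higher in 6 of 6, Hhex at the adjusted threshold, with sums of 19.78 to 19.94 against 19.45 to 19.59. That sum rests mostly on the bright hormones, and under the shift Gcg differed by -0.22 and Sst by -0.076. Acinar sums overlapped (20.01 to 20.83 against 20.01 to 20.67), as did duct sums (12.46 to 14.34 against 13.03 to 14.05), macrophage and other immune sums (13.37 to 14.37 against 13.65 to 15.08, with no array showing Cd163 well above background) and red blood cell sums (15.34 to 16.75 against 16.21 to 16.84). In these 4 lists 5 of 6, 2 of 3, 1 of 6 and 1 of 3 tested markers were higher at 12 months, none of them at the adjusted threshold. Alas2, of the red blood cell list, was lower at the study's threshold (-1.47), although its ages overlapped. The part of these cell types in the differences of Sod2, Txn1, Prdx1 and Gclc was not tested. Without the array of each age that had the lowest acinar sum, the Sod2 difference was 1.83, with an adjusted p of 0.0656.

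**Figure D4:**
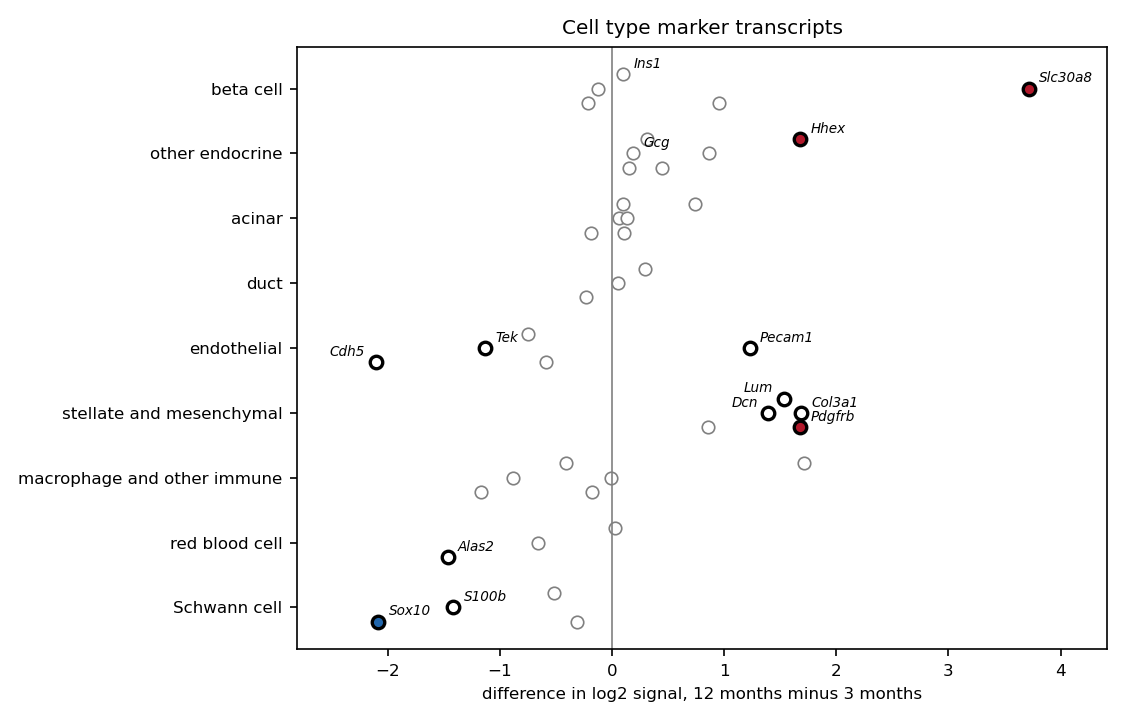
Difference in log2 signal, 12 months minus 3 months, for 43 tested marker transcripts by cell type, with symbols as for the antioxidant genes outside the set. All 5 stellate and mesenchymal markers lie above 0 and all 4 tested Schwann cell markers below it.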

How the data were processed

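RNA of isolated islets was hybridised to Arraystar/Agilent arrays with 1 colour, 3 for rats of 3 months and 3 for rats of 12 months. The deposited scanner files hold spot intensity from Agilent Feature Extraction 11.0.1.1, background-subtracted by the software and, per the file headers, not normalised between arrays. The quality marks of each spot were used as deposited. The authors also deposited quantile-normalised log2 values for 12145 probes, which followed the log2 values computed here with a correlation of at least 0.9996 on each array and served as an alternative. Arrays have no read depth, so their number limits the precision.

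Log2 intensity was averaged over the unmarked spots of a probe and quantile normalised. Of 24684 probes, 17944 were well above background on at least 3 arrays and 17941 could be tested. No probe was saturated. Ages, taken from the labels, were set against each other by two-sided moderated tests in R 4.3.3 (limma 3.58.1, lmFit then eBayes), adjusted by Benjamini-Hochberg across the tested probes. Calls used an adjusted p under 0.05, or the study's threshold (fold over 2, p under 0.05 without adjustment) with limma's p in place of that of a paired t-test, which the supplementary tables of the study list. The fit was also run on simulated data with independent normal values and no scan difference, so that run cannot speak to scan and age here. Gene names came from RefSeq accessions (assembly GRCr8).

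The members, the other antioxidant genes and the marker lists were chosen with earlier results of these data known. Named were all members, other antioxidant genes past the adjusted threshold or past the study's threshold without overlap between ages, Nfe2l2, Keap1 and the hormones Ins1, Ins2, Gcg and Sst. Alternatives were a 75th percentile shift, normexp (offset 50) on median signals, the authors' table, probes above background on all 6 arrays, no filter, an intensity trend with robust variances, t-tests unpaired and paired, replicate blocks, the 4 arrays whose names share an ending, the mean over a gene's probes, and each array left out. Keeping marked spots and leaving out the array of each age lowest in acinar signal were added after seeing the data. The third 12-month array carries no number in the labels, and its number here only names it.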

Additional observations from a re-analysis of the deposited data

How the results depend on the processing

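The 12-month to 3-month difference kept its direction under all 20 alternatives for Sod2 (1.17 to 1.83), Txn1 (0.76 to 1.29), Prdx1 (0.63 to 1.30), Gclc (0.38 to 0.63), Cat, Prdx4 and Nqo1. Several of these settings could not turn a direction. The filters, the trend, both t-tests, the block of 3 pairs and the mean over probes left the differences of these members unchanged. Sod2 passed the adjusted threshold under 9 of the 20, Txn1 under 4, Prdx1 under 0. The 9 for Sod2 include the mean over a gene's probes, which repeats the main fit since each member has 1 probe. Members past it numbered 1, and became 2 with normexp, with the stricter filter (signal over background on all 6 arrays), with no filter and with an intensity trend and robust variances. They became 0 with the methods' t-test (unpaired), the paired t-test, either replicate block, the 4 arrays whose names share an ending, and without the arrays lowest in acinar signal. Members past the study's threshold numbered 2, and became 1 with the 75th percentile shift, the paired t-test and the 4 arrays. They became 3 without the arrays lowest in acinar signal. Other antioxidant genes past the adjusted threshold numbered 3, and became 5 with the shift, 9 with normexp, 6 with the stricter filter, 6 with no filter, 7 with the trend, 0 with the paired t-test, either block or the 4 arrays, and 1 without the arrays lowest in acinar signal. Those past the study's threshold numbered 5, and became 8 with the shift and 11 without the arrays lowest in acinar signal. They became 7 with the numbered pairs or the 4 arrays, and 4 with normexp or either t-test. Over all probes 3953 passed the study's threshold in the main fit, 4921 with the shift and 4329 without the arrays lowest in acinar signal. At the adjusted threshold 1502 passed, against 1720 with the shift, 1890 with normexp, 1700 with the stricter filter and 2019 with the trend. When each array was left out in turn, the 4 counts of members and other antioxidant genes ranged from 0 to 1, from 1 to 3, from 0 to 6 and from 5 to 10.

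Signs turned for Sod1 (-0.24), Ins1 (-0.67), Gcg (-0.22) and Sst (-0.076) under the shift, which lowers the median of all probes. Without 1 array, Hmox1 ranged from -0.040 to 0.80, Gpx1 from -0.25 to 0.15, Keap1 from -0.11 to 2.42 and Ins1 from -0.022 to 0.19. The cause was not tested. The replicate block with the numbered pairs only turned Keap1 to -0.60. Arrays with the same number did not deviate together (correlations of -0.01, -0.31 and -0.26, the third pair formed by elimination). With so few arrays this cannot decide whether the numbers pair them. With the replicate block of 3 pairs, 97 of all probes passed the adjusted threshold, against 1502 without it, and with the numbered pairs only 0 did. Over all probes the adjusted count was 2339 with no filter, 435 with the methods' t-test, 1 with the paired t-test, 0 with the 4 arrays, 287 without the arrays lowest in acinar signal, and from 208 to 2163 when each array was left out in turn (208 and 288 without 12-month array 1 and 3, 322 and 459 without 3-month array 1 and 3). The 3953 probes past the study's threshold became 2133 with normexp, 2379 in the authors' table, 1552 with the paired t-test and 2604 with the 4 arrays.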

Other observations

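Several peroxide-handling transcripts varied more within an age than between ages. Gpx4, the phospholipid hydroperoxide glutathione peroxidase, was 10.99, 7.75 and 12.99 at 12 months and 11.54, 10.44 and 8.24 at 3 months. These values are from the brighter of its 2 probes. The lowest Gpx4 value within each age fell on the second 12-month array and the third 3-month array, which also had the lowest summed acinar signal of their age (20.01 on both). The same 2 arrays held the lowest value of each age for Gpx1 (with marked spots kept) and Prdx4 among the members, 2 of 10, and for 20 of the 50 other antioxidant genes tested (40%), among them Gpx2, Prdx2, Prdx6, Txnip and Keap1. Over all 17941 tested probes the share was 17.8%. The part of acinar RNA in these values was not tested, and the pattern was noticed after the values were seen.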
